A study of Mus musculus with 8 samples.

Results

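The microRNAs mmu-miR-148a, mmu-miR-148b and mmu-miR-152 form one seed family, which was read here in brown fat, the tissue that burns lipid to make heat. Its members were taken by their exact names among the non-control rows of the arrays, which gave 3 of the 566 mouse miRNAs on the array. All 3 were among the 189 miRNAs whose signal was high enough to be compared. The tissue came from 6 male C57Bl6N mice aged 8 weeks, none of which carried a named genetic change. The cold group of 3 mice (mice 1, 2 and 3) had been at 8 °C for 24 h, and the other 3 mice (mice 4, 5 and 6) were the controls at room temperature, which the labels give as 21 °C. Total RNA was labelled with Cy3 and hybridised to 8 one-colour Agilent miRNA arrays on 1 slide, with mouse 1 and mouse 4 on 2 arrays each, which were averaged. The replicates are separate mice.

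A microRNA guides an Argonaute protein to messenger RNAs that pair with its seed, the stretch of bases 2 to 8 from its 5′ end, and so lowers the output of those messages. Members of a family share the seed and can act on the same messages. miR-148a and its sisters are known for targeting the DNA methyltransferase Dnmt1, and miR-148a is also known for targeting the LDL receptor and for promoting fat cell formation. In the liver and in adipose tissue miR-148a is counted among the regulators of lipid handling.

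The mature sequences show what the sisters have in common and where a hybridisation probe could tell them apart. They are given 5′ to 3′, as RefSeq lists them on the mouse assembly GRCm38.p6, with the seed in capitals.
miR-148a: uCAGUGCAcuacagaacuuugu
miR-148b: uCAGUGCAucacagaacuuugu
miR-152: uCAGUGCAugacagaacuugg
Positions are counted from 1 at the 5′ end. From miR-148a to miR-148b the substitutions are C9U and U10C, and 20 of 22 bases are identical, among them bases 11 to 22 without a gap. From miR-148a to miR-152 the substitutions are C9U, U10G and U20G over the 21 bases compared, of which 18 are identical. From miR-148b to miR-152 they are C10G and U20G, with 19 of 21 bases identical. No probe sequence was used here, so the extent to which a probe for one sister also captures another was not tested. Every statement on a single sister holds within that limit.

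The seed CAGUGCA stood at bases 2 to 8 in 3 of the 1738 mature mouse miRNAs in the RefSeq table, which are these sisters and no others. The same letters stood at bases 1 to 7 in 7 other entries. These include miR-130a and miR-301a, which carry the stretch shifted by 1 base and form a family of their own. They are shown because the shift is the nearest likeness to the family's seed among the miRNAs measured, with the shared stretch in capitals.
miR-130a: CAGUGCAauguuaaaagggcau
miR-301a: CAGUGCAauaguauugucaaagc
A messenger RNA site that pairs with the whole stretch reads TGCACTG in DNA letters.

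The sisters come from separate genes on different chromosomes of GRCm38.p6. The hairpin of miR-148a, from Mir148a, lies on the minus strand at chr6:51269812-51269910, within the span of the gene model Gm38821. That of miR-148b, from Mir148b, lies on the plus strand at chr15:103285125-103285221, within the span of Copz1. The hairpin of miR-152, from Mir152, lies on the plus strand at chr11:96850393-96850465, within the span of Copz2. Copz1 and Copz2 encode the paired forms of the zeta subunit of the COPI vesicle coat, so miR-148b and miR-152 lie within a pair of related genes.

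Each member was measured by 2 probes, printed in 10 spots each. A probe's value is the mean of its spots in the scanner software's background-subtracted signal units. For comparisons each array was divided by its own 75th percentile, taken over the 267 probes well above background on all arrays. The scale factors ran from 574 to 918 units in the cold and from 863 to 1408 units at room temperature. The log2 of this ratio, averaged over a miRNA's usable probes, is called the normalised level below, and a change is the difference of cold minus room temperature. Brightness depends on the probe as well as on the amount of RNA, so levels of different sisters are not set against each other and the family's make-up in molecules is not given. What can be compared is how each sister, and each ratio between sisters, changed.

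All 3 sisters had a lower mean normalised level in the cold, and none passed the test across miRNAs. The changes were −0.42 for miR-148a, −0.38 for miR-148b and −0.16 for miR-152, a median of −0.38 against −0.022 over all 189 miRNAs. At an adjusted p under 0.05 (limma, Benjamini-Hochberg over 189 miRNAs) 0 of 3 members were called, where 15.3% of all miRNAs were called in either direction and 6.88% were called lower. At an unadjusted p under 0.05, 2 of 3 members were lower in the cold, where 16.9% of all miRNAs were. In bulk tissue, fewer cells of a type and less RNA per cell cannot be told apart.

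miR-148a, the member tied most closely to lipid handling, had normalised levels of −1.62, −1.37 and −1.33 in cold mice 1 to 3, and of −0.73, −1.25 and −1.06 in room temperature mice 4 to 6. The highest cold mouse stayed under the lowest control, although mouse 2 and mouse 3 lay close to mouse 5. Such a separation with cold lower was found for 18.5% of all miRNAs. The change of −0.42 ± 0.170 (SE, n = 3 mice per group) corresponds to a level 1.34-fold higher at room temperature, with an adjusted p of 0.133 (limma). The 95% confidence interval ran from −0.82 to −0.031. The paired arrays of mouse 1 gave −1.84 and −1.39 for miR-148a, a distance of 0.452, which is as large as the difference between the groups. Those of mouse 4 gave −0.74 and −0.73.

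miR-148b had normalised levels of −4.08, −4.03 and −3.73 in the cold and of −3.78, −3.45 and −3.48 at room temperature. The groups overlapped, since cold mouse 3 lay above room temperature mouse 4. The change was −0.38 ± 0.156 (SE, n = 3 per group; adjusted p = 0.142, limma), 1.30-fold higher at room temperature, with a 95% confidence interval from −0.74 to −0.016. The paired arrays of mouse 1 lay 0.409 apart for miR-148b and those of mouse 4 lay 0.194 apart.

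miR-152 moved least in this setting. Its levels were −2.92, −3.00 and −2.77 in the cold and −2.73, −2.65 and −2.84 at room temperature, so the groups overlapped. The change of −0.16 ± 0.129 (SE, n = 3 per group; adjusted p = 0.423, limma) had a 95% confidence interval from −0.46 to 0.14, which holds both a lower and a slightly higher level in the cold. The paired arrays of mouse 1 and of mouse 4 lay 0.147 and 0.261 apart for miR-152.

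**Figure D1:**
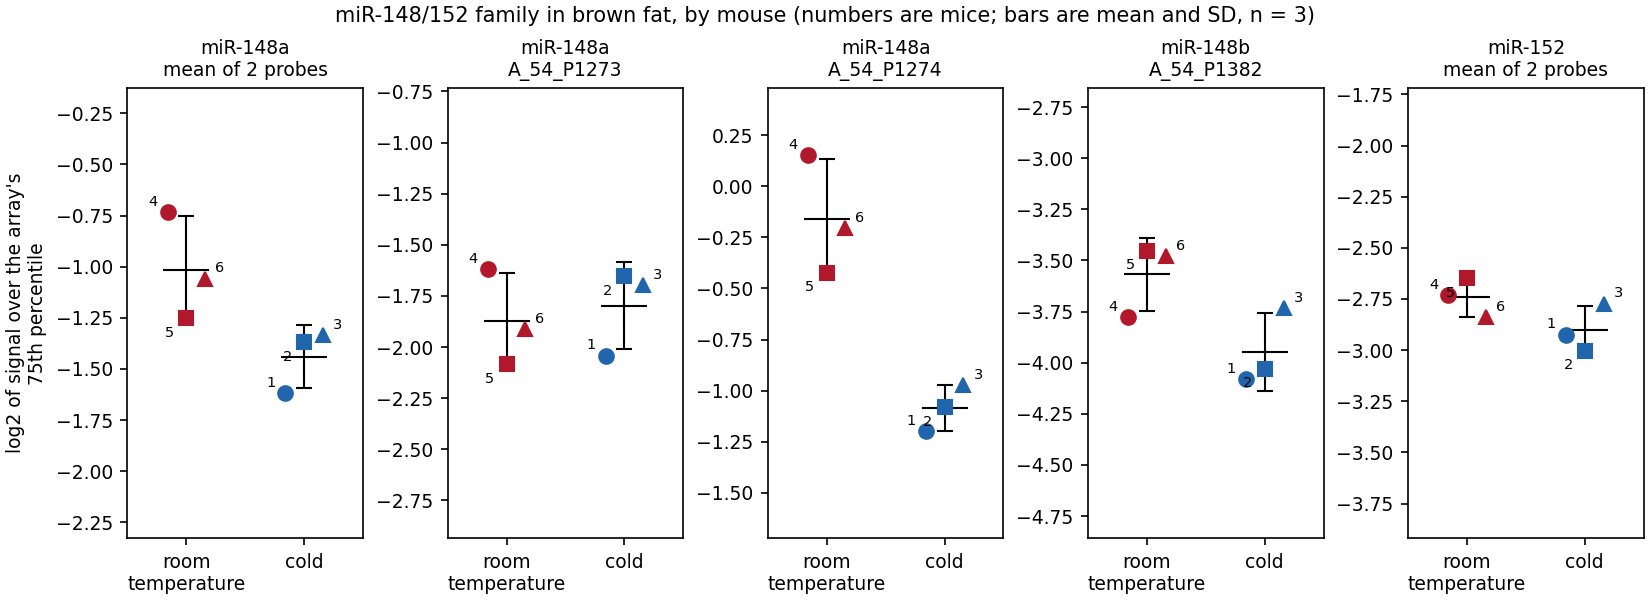
Normalised log2 level (vertical axis, signal over the array's 75th percentile) of miR-148a, of its 2 probes apart, of miR-148b and of miR-152 in each mouse, with room temperature in red and cold in blue; every panel spans the same number of log2 units around its own mean. Points are mice, and black bars are the mean and SD (n = 3). The groups separate for miR-148a and for its probe A_54_P1274, and overlap for A_54_P1273, miR-148b and miR-152.

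The sisters' probes differed in how much they could show. Both probes of miR-148a and both of miR-152 were well above background on all 8 arrays. Of the miR-148b probes, A_54_P1382 was well above background on all 8 arrays, while A_54_P1381 was so on none, with 4.65 ± 1.29 units in the cold and 4.46 ± 2.40 at room temperature (SD, n = 3). The value of miR-148b therefore rests on 1 probe. That probe read 37.9, 51.1 and 69.1 units in cold mice 1 to 3 and 72.2, 78.9 and 126 units in mice 4 to 6 before scaling. Without scaling the median change of all miRNAs was −0.46, so lower units in the cold were common. After scaling the groups overlapped, as given above.

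The probes of miR-148a gave unlike answers. A_54_P1274 read 280, 395 and 468 units in the cold and 1094, 644 and 1220 at room temperature, and the groups stayed apart after scaling, as they did with cold lower for 19.8% of probes. When probes were fitted singly, its change was −0.92 ± 0.178 (SE), 1.90-fold higher at room temperature, with an adjusted p of 0.0139 (limma over 329 probes), where 24.3% of probes were called in either direction and 10% were called lower. Without mouse 2 the adjusted p was 0.0616, and without each other mouse in turn it ran from 0.0177 to 0.0489. The second probe, A_54_P1273, read 157, 265 and 283 units in the cold and 322, 203 and 374 at room temperature, with a change of 0.074 (adjusted p = 0.800, limma). The 2 probes for the same miRNA thus differed by 0.998 in their change. Among the 125 miRNAs with several usable probes the median distance was 0.381, and 9 had a larger one. For miR-152 the changes of A_54_P2333 and A_54_P2334 were −0.18 and −0.14, a distance of 0.042.

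The place of a spot on the array moved with the group. For the 267 probes well above background on all arrays, each spot was set against the median spot of its own probe. In array rows 1 to 16, spots of cold arrays lay at −3.54 on the log2 scale (the mice from −3.83 to −3.21), and those of room temperature arrays at −0.055. In rows 177 to 192 the order was turned, with −0.084 in the cold and −3.23 at room temperature (from −3.67 to −2.94). In rows 81 to 96, at the middle, the 2 groups lay at 0.084 and 0.14. The cold arrays filled one row of the slide and the room temperature arrays the other, so the dimmed edge, the row of the slide and the temperature cannot be told apart from the layout alone.

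**Figure D2:**
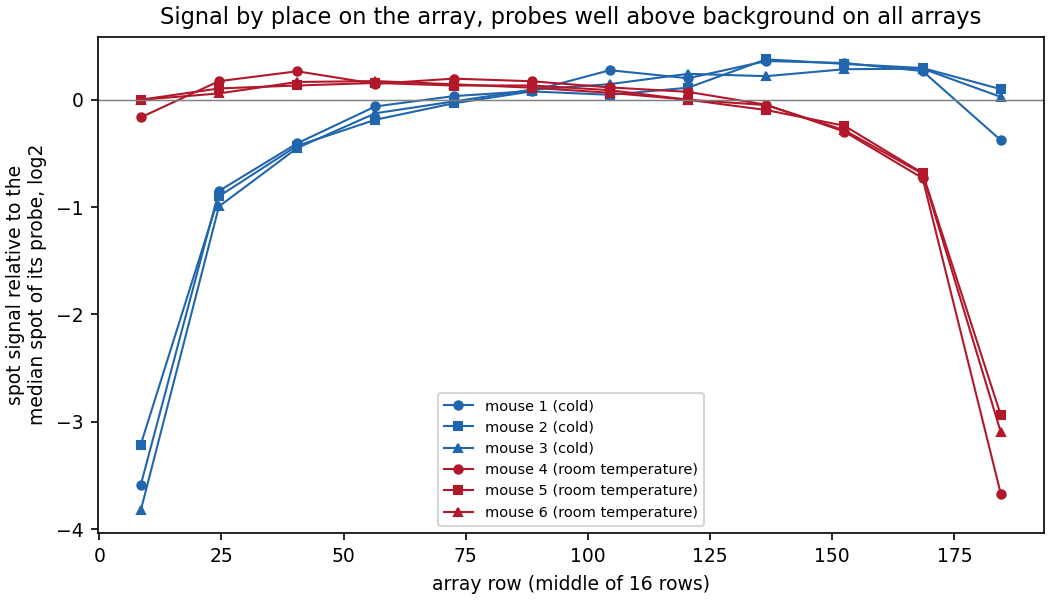
Spot signal relative to the median spot of the same probe (log2, vertical axis) by array row (horizontal axis, 12 zones of 16 rows), as the median over spots of 267 probes well above background on all arrays, with 1 line per mouse. The cold mice drop to between −3.83 and −3.21 in the top zone and the room temperature mice to between −3.67 and −2.94 in the bottom zone.

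The family's probes were not spread evenly. A_54_P1274, the miR-148a probe with the larger change, had 5 of its 10 spots in rows 1 to 48, where cold arrays are dim, and 1 in rows 145 to 192, where room temperature arrays are dim. A_54_P1273 had 2 and 3 spots in these parts. The miR-148b probe A_54_P1382 had 3 at the top and 1 at the bottom, and the miR-152 probes A_54_P2333 and A_54_P2334 had 4 and 2, and 4 and 3. Within the top rows every member probe was lower in the cold, from −2.09 for A_54_P1273 to −0.97 for A_54_P2334, where the median of all bright probes there was −1.36. In the bottom rows the 3 probes with a value were higher in the cold, by 1.65 for A_54_P1273, 2.14 for A_54_P2333 and 1.32 for A_54_P2334, against a median of 1.26.

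In the middle rows, 49 to 144, the gradient was smaller and changed sign, from −0.28 in rows 49 to 64 to 0.38 in rows 129 to 144, with a median change of 0.065 over bright probes. In these rows both miR-148a probes were lower in the cold, A_54_P1274 by −0.46 (4 spots, 564 units in the cold and 1040 at room temperature) and A_54_P1273 by −0.24 (5 spots, 173 and 278 units). The miR-148b probe changed by −0.28 (6 spots, 61.3 and 100.1 units). The miR-152 probes changed by −0.025 and 0.13, on 4 and 3 spots. These are descriptions of a few spots, which lie in different rows for each probe, and they carry no test of a difference between sisters. The local offsets are of the same order as the changes, and 2 of the 4 middle spots of A_54_P1274 lay in row 54, where cold arrays are the dimmer ones.

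**Figure D3:**
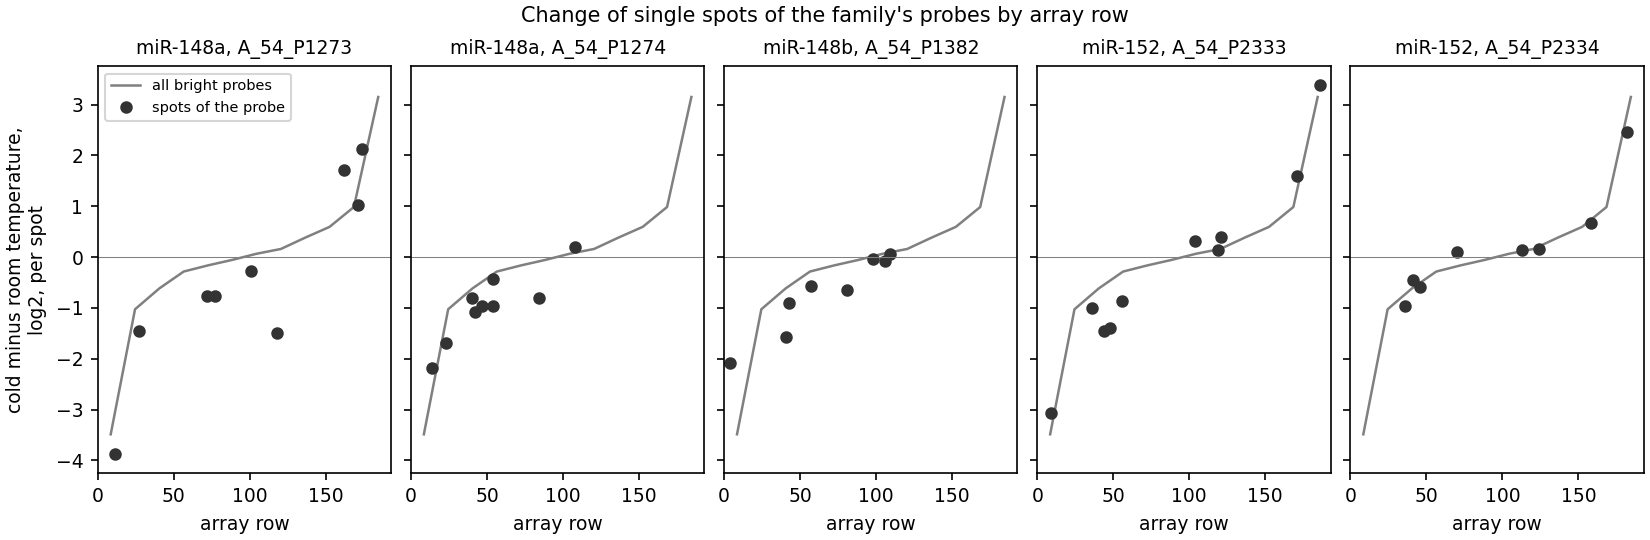
Change of cold minus room temperature (log2, vertical axis) of each single spot of the 5 usable family probes against its array row (horizontal axis), with the profile of the 267 bright probes as a grey line. Spots with a dropped value in a mouse have no point. Most spots follow the profile, and most miR-148a and miR-148b spots in rows 49 to 144 lie below 0, while those of A_54_P2334 there lie near or above it.

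The test was therefore repeated with 2 treatments of position, both chosen after the pattern was seen. The first kept spots in rows 49 to 144 and columns 9 to 72. The second divided each spot by the local trend of the bright probes on its own array, and left out 5.27% to 13.6% of miRNA spots per array as strongly dimmed. The median SD among spots of a probe went from 1.35 to 0.555 log2 units. That SD was read on the same 267 bright probes that gave the trend, so its fall is no separate check of the correction. With inner spots alone, miR-148a changed by −0.33 ± 0.172 (adjusted p = 0.215, limma) and its levels were −1.09, −1.40 and −0.82 in the cold against −0.73, −0.83 and −0.75 at room temperature, an overlap by cold mouse 3 alone. Its probes A_54_P1274 and A_54_P1273 then gave −0.37 and −0.30, on 4 and 2 spots. Of the 2 spots of A_54_P1273, 1 had no value in mouse 5. After the position correction miR-148a changed by −0.37 ± 0.148 (adjusted p = 0.158, limma), with −1.50, −1.45 and −1.35 in the cold and −0.78, −1.21 and −1.20 at room temperature. Those groups did not overlap, as for 13.8% of all miRNAs with cold lower in that setting. A_54_P1274 alone changed by −0.59 (adjusted p = 0.0509, limma, where 6.69% of probes were called), and A_54_P1273 by −0.14. The 2 probes thus still differed by 0.451 in their change, where the median over 125 miRNAs with several usable probes was 0.202.

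miR-148b shrank under both treatments, to −0.15 ± 0.146 with inner spots and to −0.24 ± 0.150 with the position correction (adjusted p = 0.510 and 0.344, limma). miR-152 turned to 0.20 ± 0.197 with inner spots (adjusted p = 0.510), where the median of all miRNAs was 0.17, and stood at −0.13 ± 0.108 with the position correction (adjusted p = 0.521). Its corrected levels were −2.93, −3.08 and −2.89 in the cold and −2.86, −2.79 and −2.87 at room temperature. They lay apart by a small gap, as for 13.8% of all miRNAs with cold lower in that setting. So 0 of 3 members were called in either treatment, where 9.24% of miRNAs were called with inner spots and 15.3% after the correction. At an unadjusted p under 0.05, 0 of 3 members were lower with inner spots (background 9.24%) and 1 of 3, miR-148a, after the correction (background 14.8%).

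The scaling bore on the size of every member's change as well. Without scaling, the changes were −0.87 for miR-148a, −0.82 for miR-148b and −0.60 for miR-152, while the median of all miRNAs was −0.46, so every member's distance from that median was as with the percentile. Scaled by 4 control RNAs well above background on all arrays, they were −0.79 (adjusted p = 0.0565), −0.75 (adjusted p = 0.0467) and −0.53 (adjusted p = 0.0958, all limma), with a median of −0.39. There miR-148b passed the test, in a setting where 17.5% of all miRNAs were called lower and the median miRNA was lower too. With the brightest probe of each miRNA, miR-148a passed (−0.92, adjusted p = 0.0154, limma), where 8.99% of miRNAs were called lower. It also passed with the software's total signal (−0.63, adjusted p = 0.0442), where 9.52% were. Quantile normalisation gave −0.30, −0.37 and −0.057, with a median of −0.016.

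**Figure D4:**
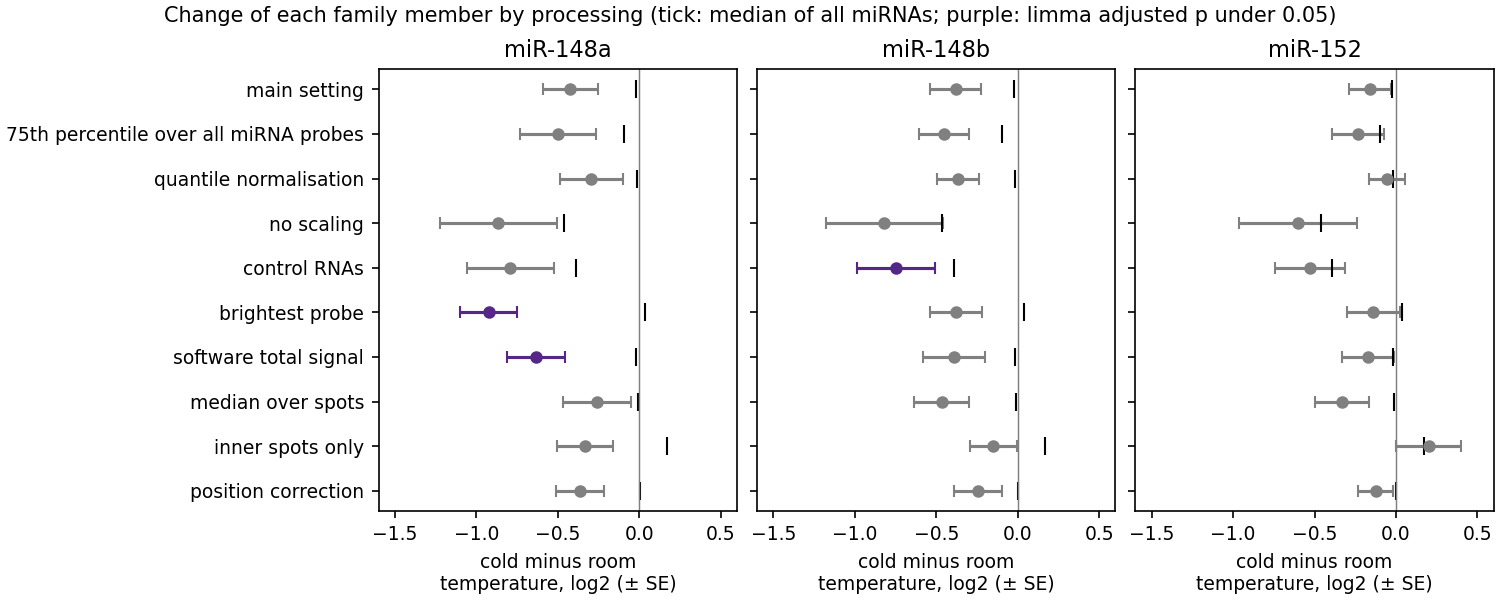
Change of cold minus room temperature (log2, horizontal axis; point and SE, n = 3 mice per group) of miR-148a, miR-148b and miR-152 in the main setting and 9 alternatives, with a tick at the median of all miRNAs in the same setting and purple for an adjusted p under 0.05. miR-148a and miR-148b lie below that median in all 10 settings shown, and miR-152 lies at 0.20 with inner spots.

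Whether the sisters changed unequally was asked with their log2 ratio within each mouse, which no scaling by a single factor can move. The ratio of miR-148a to miR-148b changed by −0.046 ± 0.265 (SE, n = 3 per group; exact permutation test, 2-sided, p = 0.9). Relative to its mean over the 6 mice it was −0.068, 0.13 and −0.13 in the cold and 0.51, −0.33 and −0.11 at room temperature, so the widest spread was among the room temperature mice. The ratio of miR-148a to miR-152 changed by −0.26 ± 0.201 (exact permutation test, 2-sided, p = 0.3), and that of miR-148b to miR-152 by −0.22 ± 0.131 (p = 0.3). Adjusted over the 3 pairs, the p-values were 0.9, 0.45 and 0.45, and 3 mice against 3 cannot go below 0.1. No pair was shown to differ in its change, and each SE is wide beside the changes themselves.

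With inner spots the ratio of miR-148a to miR-152 changed by −0.53 and that of miR-148a to miR-148b by −0.18, both at p = 0.1, the smallest value the exact permutation test can give here. After the position correction they changed by −0.24 (p = 0.2) and −0.12 (p = 1, exact permutation test). Across the 6 mice the normalised levels of miR-148b and miR-152 had r = 0.758, those of miR-148a and miR-148b r = 0.480, and those of miR-148a and miR-152 r = 0.492. After the position correction these were 0.840, 0.206 and 0.533. The levels share their array and its scale factor, and 6 mice in 2 groups give such values no more than descriptive weight.

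**Figure D5:**
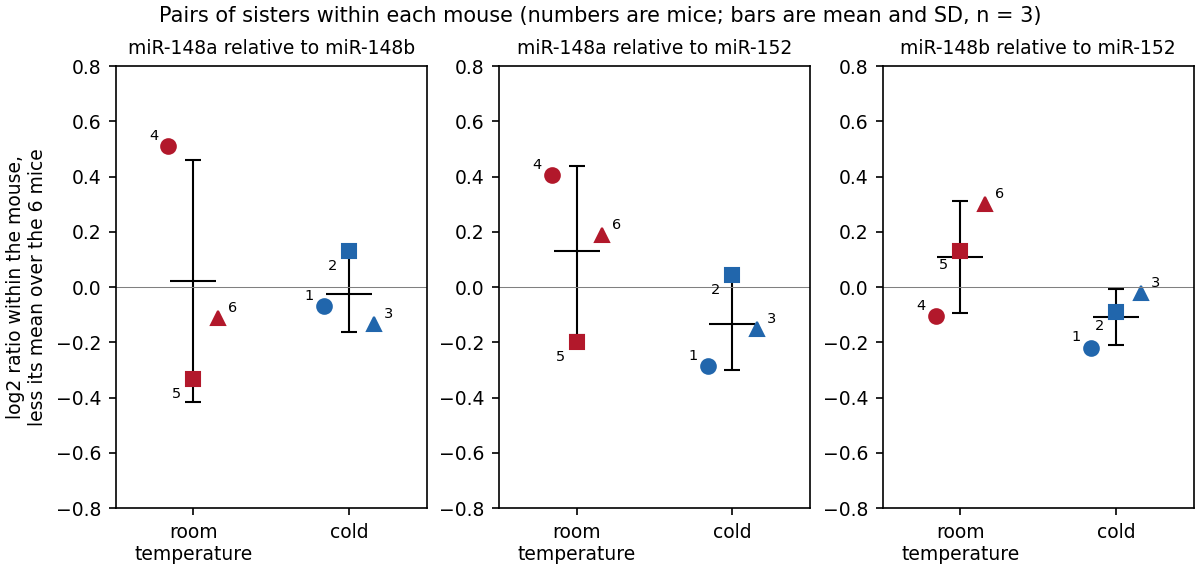
Log2 ratio of each pair of sisters within a mouse, less its mean over the 6 mice (vertical axis), at room temperature (red) and in the cold (blue), with the mean and SD (n = 3) in black. Groups overlap in all 3 panels, and mouse 4 has the highest ratio of miR-148a to miR-148b, at 0.51.

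The other strand of the miR-148a hairpin, called miR-148a* in the array design, was read as well. It is the only such strand of the family on the array, and its sequence has a different seed, again in capitals.
miR-148a*: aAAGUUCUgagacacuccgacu
Its 4 probes were well above background on 0 of 8 arrays and lay between −3.60 and 1.53 units on single arrays, around 0. No change is given for it.

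Among the miRNAs that hold the family's seed shifted by 1 base, 2 of 5 could be compared and 0 of 2 passed the test. miR-130a changed by 0.035 ± 0.149 (adjusted p = 0.881, limma) and by −0.26 (adjusted p = 0.223) after the position correction. miR-301a changed by 0.33 ± 0.126 (adjusted p = 0.116) and by −0.041 (adjusted p = 0.874) after the correction. With quantile normalisation miR-301a was higher in the cold by 0.43 (adjusted p = 0.0384), and without scaling its change was −0.11. miR-130b and miR-301b were well above background on no array, and miR-721 on too few. By its A_54_P2440 probe, miR-301a thus had the opposite sign from the sisters in the main setting and lost it with the correction for position. With inner spots it kept that sign (0.19, adjusted p = 0.349, limma), where the median of all miRNAs was 0.17.

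The miRNAs whose levels ran most like each sister's over the 6 mice were picked by Pearson r among 186 outside the family. For miR-148a they were miR-219 (r = 0.964), miR-21 (0.923), which is induced in many growing or inflamed tissues, and miR-342-3p (0.894), a miRNA of lymphocytes. After the position correction these were 0.233, 0.995 and 0.880, so the likeness to miR-219 was not kept. For miR-148b they were miR-125b-5p (0.975), miR-30e (0.953) and miR-181c (0.942), and 0.856, 0.300 and 0.952 after the correction. For miR-152 they were miR-181c (0.890), miR-484 (0.801) and miR-374 (0.785), and 0.919, 0.229 and 0.794 after it. miR-21 changed by −0.30 in the main setting (adjusted p = 0.228, limma) and by −0.39 after the correction (adjusted p = 0.168).

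Among markers of other cell types, muscle and stromal miRNAs had members past the test. Of 6 striated muscle miRNAs, 4 could be compared and 3 were called lower in the cold, where 6.88% of all miRNAs were. The summed scaled signal was 1.49 to 6.44 in the cold and 7.53 to 11.1 at room temperature. miR-499 and miR-208b, from the muscle myosin genes, were well above background on no cold array. With inner spots 0 of these 4 passed (miR-133a, miR-133b and miR-206 at an adjusted p of 0.0899, limma), and after the position correction miR-133a and miR-133b passed (0.0364 and 0.0373) and miR-206 did not (0.0626). Of 5 stromal miRNAs, 4 were compared and 3 were called lower, beside the same 6.88% of all miRNAs, with sums of 0.782 to 0.853 and 1.16 to 1.29. The remaining miRNA compared, miR-199a-5p, went the other way, by 0.68 (adjusted p = 0.169, limma). After the position correction it changed by −0.12 (adjusted p = 0.863, limma). All 3 that were called lower passed after that correction. With inner spots only miR-199a-3p did (adjusted p = 0.0285, limma), with miR-214 at 0.0899 and miR-199b* at 0.188. The 7 leukocyte miRNAs had 0 calls and a median change of −0.38, with sums of 0.684 to 1.11 and 1.17 to 1.23. None of them passed in either position treatment. With inner spots their changes ran from −0.29 for miR-142-5p to 0.22 for miR-150, where the median of all miRNAs was 0.17. After the position correction they ran from −0.67 for miR-142-5p to 0.058 for miR-155. The 3 erythroid miRNAs had 0 calls in the main setting and a median of 0.64 (17.4 to 27.9 against 12.3 to 15.1). Of these, miR-451 passed as higher in the cold after the position correction (adjusted p = 0.0347, limma) and with inner spots (0.0285). In those settings 15.3% and 9.24% of all miRNAs were called in either direction, and miR-144 and miR-486 passed in neither. Of the 4 endothelial miRNAs 3 were compared, with 0 calls and a median of −0.15 (9.03 to 12.1 against 11.2 to 12.9). The 6 brown fat miRNAs were all measured, 2 were called higher, where 8.47% of all miRNAs were, and their sums were 8.71 to 12.0 against 7.02 to 8.46. After the position correction miR-193b, miR-378 and miR-182 passed, and with inner spots miR-193b and miR-182 did. Of these, miR-182 met the signal filter only through the cold group, being well above background on 4 cold arrays and 3 at room temperature. It was dim, with 8.41 to 14.4 units over the mice. The part that other cells had in the sisters' values was not tested.

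The liver markers matter because miR-148a is abundant in liver. Of miR-122, miR-192 and miR-194, 0 of 3 were called, and their sums were 0.118 to 0.131 in the cold and 0.114 to 0.433 at room temperature. miR-122, the defining miRNA of hepatocytes, read 1.43, 1.74 and 1.17 units in the cold, where it was well above background on no array, and 7.01, 177 and 77.3 units at room temperature. On the normalised scale mouse 4 had the lowest miR-122 of its group and the highest miR-148a, while mouse 5 had the highest miR-122 and the lowest miR-148a. Before scaling, mouse 6 had the highest miR-148a on both probes. After the position correction mouse 5 and mouse 6 lay close together for miR-148a, at −1.21 and −1.20. The part of liver RNA in the values was not tested.

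Other miRNAs with roles near the family's were read from set lists. The miR-29 family, which also targets DNA methyltransferases, had 3 of 3 members measured and 0 called, with a median of −0.24. Its strongest member by p was miR-29c, with −0.34 ± 0.121 (adjusted p = 0.0957, limma), followed by miR-29a with −0.24 (adjusted p = 0.312). Of 11 miRNAs known for lipid and cholesterol handling, 10 were measured and 0 were called, with a median of −0.34. In that list miR-144, a red cell miRNA that also targets the cholesterol exporter Abca1, had 0.83 ± 0.236 (adjusted p = 0.0525). miR-122 passed the signal filter only through the room temperature arrays, and it lay at the floor in all 3 cold mice. Its floored change of −2.71 had an adjusted p of 0.115 (limma), which does not belong to the bound that follows. By group means miR-122 was at least 4.89-fold higher at room temperature. That bound sets the lowest signal well above background on each cold array, a mean of −6.23, against the room temperature mean of −3.94. It does not hold for every control: mouse 5 and mouse 6 lay at −1.74 and −3.56, but mouse 4 lay at −6.51, under the cold bound. Of 12 adipogenic miRNAs, 10 were measured, with a median of 0.18, and 1 was called. That was miR-30d, higher in the cold by 0.56 ± 0.123 (adjusted p = 0.0205, limma), where 8.47% of all miRNAs were called higher. It changed by 0.40 after the position correction (adjusted p = 0.0411) and by 0.34 with inner spots (adjusted p = 0.184), where it did not pass. With inner spots miR-30a of that list passed instead (0.53, adjusted p = 0.0427), where 9.24% of all miRNAs were called in either direction. miR-107, which acts on insulin signalling, was second in that list with 0.30 (adjusted p = 0.190).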

How the data were processed

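Spot intensity on 8 arrays came as the authors deposited it: background-subtracted by Agilent Feature Extraction 10.7.3.1 per the file headers (9.5.3.1 per the submitters' processing notes), on a linear scale. The deposited value table of the series holds the same values (largest difference 0). Groups were taken from the labels' temperature. Outlier spots, 2.09% to 2.63% of the 11540 miRNA spots on an array, were dropped, and 0 spots were saturated. Spots of a probe were averaged, divided by the array's 75th percentile over 267 probes, floored at 0.01 and taken to log2. A probe entered (329 of 1712 did) if, in either group, a share of its spots above 0.5 exceeded background by the software's call on each array, and such probes of a miRNA were averaged. The 2 arrays of a mouse were averaged. Groups were compared with limma 3.58.1 in R 4.3.3 (Benjamini-Hochberg, threshold 0.05), tested on simulated data, and sister ratios with an exact permutation test. The position correction used the 30 nearest bright spots and dropped spots dimmed below −2. Markers and other miRNAs were named as the 2 smallest p-values of a list, and for likeness the 3 highest r. Members and lists were chosen with earlier results of these data known. The number of arrays limits the precision. Mature sequences were matched by name for all 3 members.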

Additional observations from a re-analysis of the deposited data

How the results depend on the processing

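miR-148a kept its sign in 23 alternatives (−0.92 to −0.26) and passed the test with the brightest probe (−0.92) and the software's total signal (−0.63). In those 2 settings 8.99% and 9.52% of all miRNAs were called lower. miR-148b kept its sign in 22 (−0.82 to −0.0048) and passed with control RNAs (−0.75), where 17.5% of all miRNAs were called lower. With a floor 10 times higher miR-148b had no value. miR-152 ran from −0.60 to 0.20 and turned with a normexp background scaled by percentile (0.0028) and with inner spots (0.20). Leaving out 1 mouse gave −0.54 to −0.28 for miR-148a, −0.49 to −0.31 for miR-148b and −0.22 to −0.11 for miR-152. The ratio of miR-148a to miR-148b turned with quantile normalisation (0.074), with the median over spots (0.21) and without mouse 3 or mouse 4 (−0.22 to 0.20 over all mice left out). That of miR-148a to miR-152 turned with the median over spots (0.073). With the brightest probe both moved the other way, to −0.55 and −0.78, each at p = 0.1 (exact permutation test). The count of 29 called miRNAs became 45 with quantile normalisation, 13 without scaling, 14 and 6 with normexp (quantile and percentile), 5 without a filter, 16 with probes above background on all arrays, 5 with the higher floor and 17 with inner spots, of which 12 were among the 29. Without mouse 6 it was 8, without mouse 2, 3 or 5 it was 11, 14 or 13, and without mouse 1 it was 33. After the position correction it was 29, with 23 shared. The causes were not tested. Normexp used the spots' median signal. No paired analysis was possible because the groups share no mouse numbers.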
